A study of Gossypium hirsutum with 51 samples.

Results

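The arrays that set ovules of upland cotton (Gossypium hirsutum) aged +20 days post anthesis against ovules aged +3 are described here. They were chosen by their titles, and they are 6 of the 51 cDNA arrays of the series. Days post anthesis count from the opening of the flower, so +20 is the oldest age measured and +3 the age with which every other wild-type age was compared. Both RNAs on each of the 6 arrays came from wild-type ovules with no stated treatment. The labels name whole ovules and total RNA, with no cultivar and no word on whether fibres stayed on the ovules. Each of 3 sets consists of a forward array, with +20 RNA in Cy5 and +3 RNA in Cy3, and an array with the dyes exchanged. Per the series' design notes the samples were biologically independent. A set is counted as 1 replicate, and n counts sets.

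The other comparisons used here are wild-type ovules aged -3, 0, +5, +10 and +15 against +3, and wild-type against fl-mutant ovules at +10, each with 6 arrays. In 3 self-to-self arrays, +3 wild-type RNA was in both channels. The nature of the fl allele is not stated in the labels. The comparisons with +5 and +10 rest on 2 sets each, because 1 array occurs under both ages and was left out.

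Cotton fibres are single cells that grow out of the outer epidermis of the ovule. They start around flowering, lengthen for weeks, and then change from lengthening to laying down a secondary wall of nearly pure cellulose while the embryo and seed coat develop underneath. An ovule of +20 therefore holds seed coat and embryo together, and fibre too where it stayed on the ovule. In RNA of the whole organ, more cells of a type and more RNA per cell cannot be told apart. Neither the deposited table nor the RefSeq gene table pairs a clone name with a gene. No clone is given a gene or a role for that reason, and no marker of wall deposition, elongation or embryo could be looked up.

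Values are log2 ratios of +20 to +3, averaged over the forward and the dye-swapped array of a set. The labels name the dyes but not the numerator. The direction is called likely on the basis of a control spot named HEX, the name of a dye read with Cy3, which read -9.97, -8.64 and -7.16 on the forward arrays of sets 1, 2 and 3 and 7.71, 9.11 and 8.90 on their dye swaps. Across clones the forward array and its swap correlated at 0.83, 0.83 and 0.72, as ratios turned the same way on both would, although 22.9%, 21.7% and 28.4% of clones had opposite signs. If every ratio runs the other way, higher and lower exchange places throughout.

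On each of the 6 arrays of +20 against +3, most of the clones measured lay within 2-fold of +3. Single arrays measured between 9593 and 11166 of 11682 clones, and 9145 clones were measured on all 6. On the forward arrays of sets 1, 2 and 3, 17.9%, 23.5% and 29.9% of the clones measured were at least 2-fold from +3. On the dye swaps of the same sets the shares were 12.7%, 13.2% and 16.8%. The self-to-self arrays, which give the background of the method, had 0.548%, 1.58% and 1.10% of clones past 2-fold. The deposited clone values of these 3 arrays do not appear to be normalized as those of the other 6 are. Each of the 6 arrays therefore lay above all 3 self-to-self arrays, and within each set the forward array lay above its swap.

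**Figure D1:**
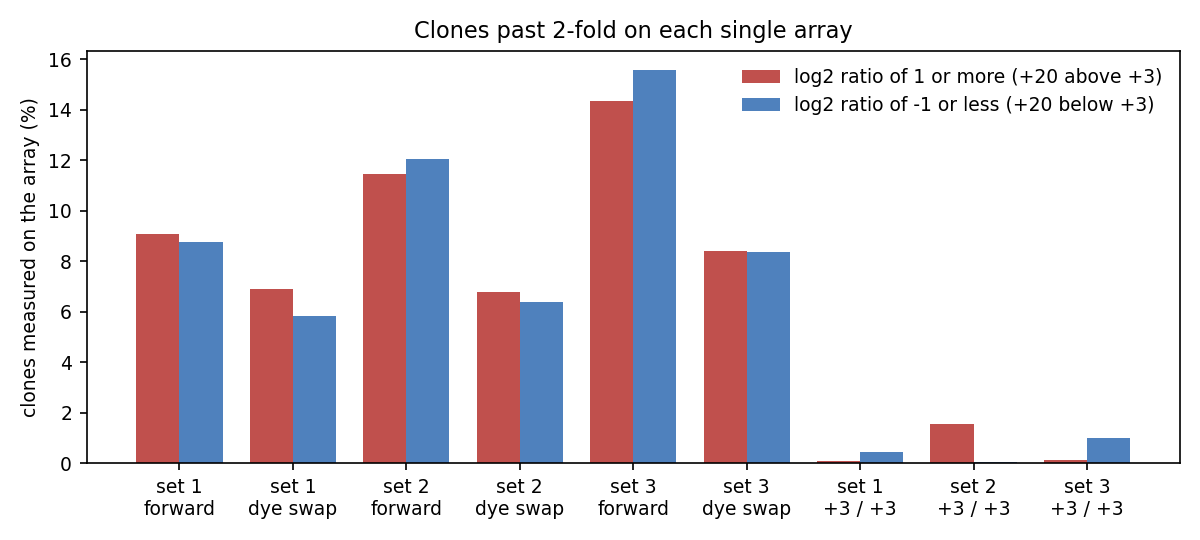
Percent of the clones measured on an array whose log2 ratio was 1 or more (red) or -1 or less (blue), for the forward and dye-swap arrays of the 3 sets of +20 against +3 and for the 3 self-to-self arrays. On the +20 arrays, red stands for +20 above +3. The 6 arrays of +20 have between 12.7% and 29.9% of clones past 2-fold in both directions together, and the self-to-self arrays between 0.548% and 1.58%.

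In the fit over sets, 7266 of 10480 clones tested differed between +20 and +3, which is 69.3% (limma, Benjamini-Hochberg adjusted p under 0.05). Of these, 3514 were higher at +20 (33.5% of the clones tested) and 3752 lower (35.8%). Testing a clone needed 2 or more sets with a value on each of their arrays, which left out 1202 clones. Among these are 220 that the table lists at exactly 0 on all 6 arrays. An exact 0 was read as not measured. The same 220 clones were measured on a median of 17 of the 45 other arrays of the series.

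Strong differences were fewer and were spread over both directions. At least 2-fold differences were called for 826 clones higher at +20 (7.88%) and 766 lower (7.31%). At least 4-fold, 164 were higher and 105 lower, at least 8-fold 47 and 22, and at least 16-fold 13 and 6. The ratio of higher to lower clones was thus larger among the strongest differences, but only on plates 1 to 75, where 43 were at least 8-fold higher and 4 lower. On plates from 76 up, 4 clones rose and 18 fell by 8-fold or more, which became 7 and 11 when plates were centred. The median SD over sets was 0.13 for all clones tested, 0.18 for those at least 2-fold higher and 0.19 for those at least 2-fold lower.

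The strong differences held from array to array in sign more often than in size. Of the 748 clones at least 2-fold higher that were measured on all 6 arrays, 742 had 1 sign on all 6 and 370 were past 2-fold on every one. Of the 659 at least 2-fold lower, 656 had 1 sign and 273 were past 2-fold on every array. The median of the 826 ran from 1.25 on the dye swap of set 1 to 1.70 on the forward array of set 3. That of the 766 ran from -1.78 on the forward array of set 3 to -1.12 on the dye swap of set 1. Both lists were chosen by their mean over these same 6 arrays, so these counts and medians follow from the choice in part. On the self-to-self arrays the 826 had medians of -0.12, 0.11 and -0.11 and the 766 had -0.25, 0.11 and -0.45.

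Clones CM041D09 and CM013A08 stood highest among the clones called and measured with 1 sign on all 6 arrays. CM041D09 read 5.03 and 4.31 on the forward and swapped array of set 1, 6.32 and 3.83 in set 2, and 5.80 and 5.54 in set 3. CM013A08 read 5.12 and 4.41, 6.34 and 3.94, and 5.69 and 5.13 in the same order. The values of the clones differed by at most 0.407 on any of the 6 arrays. The set means were 5.14 ± 0.50 for CM041D09 (log2, SD, n = 3), a ratio of 35.2, and 5.11 ± 0.32 for CM013A08 (SD, n = 3), a ratio of 34.4. The limma adjusted p was 8.92e-07 for the first and 5.28e-10 for the second.

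Clones CM086E04 and CM099E09 stood lowest. CM086E04 read -5.71 and -5.36 in set 1, -6.92 and -4.37 in set 2, and -6.55 and -6.01 in set 3. CM099E09 read -5.96 and -4.92, -6.20 and -4.77, and -6.02 and -6.12. No array brought either clone near the level of +3, and set 2 had the widest gap between forward and swapped array for these clones and for the highest pair. The means were -5.82 ± 0.40 for CM086E04 (SD, n = 3; 56.6-fold lower; limma adjusted p = 2.36e-11) and -5.66 ± 0.35 for CM099E09 (SD, n = 3; 50.7-fold lower; limma adjusted p = 4.32e-16).

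These 4 clones reached their +20 level along different courses. CM041D09 stood at 1.26 ± 0.26 at +10 (SD, n = 2; limma adjusted p = 0.102, not called) and at 5.85 ± 2.19 at +15 (SD, n = 3), where its sets ran from 4.54 to 8.38. CM013A08, so close to it at +20, was already at 3.10 ± 1.30 at +5 and at 5.05 ± 0.03 at +10 (SD, n = 2 each). At +15 it stood at 5.96 ± 1.18 (SD, n = 3).

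CM086E04 was at -1.41 ± 0.24 at +5, -1.89 ± 0.06 at +10 (SD, n = 2 each) and -6.50 ± 1.75 at +15 (SD, n = 3). CM099E09 was at -2.72 ± 0.57 at +5, -2.98 ± 0.08 at +10 (SD, n = 2 each) and -5.58 ± 0.38 at +15 (SD, n = 3). It was also below +3 at -3, at -3.13 ± 0.27 (SD, n = 3), and at 0, at -0.57 ± 0.16 (SD, n = 3), so that it was highest at +3 among the ages measured. All of these comparisons carry +3 RNA. None of the 4 clones was called as different between +20 and +15 (limma, adjusted p under 0.05).

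**Figure D2:**
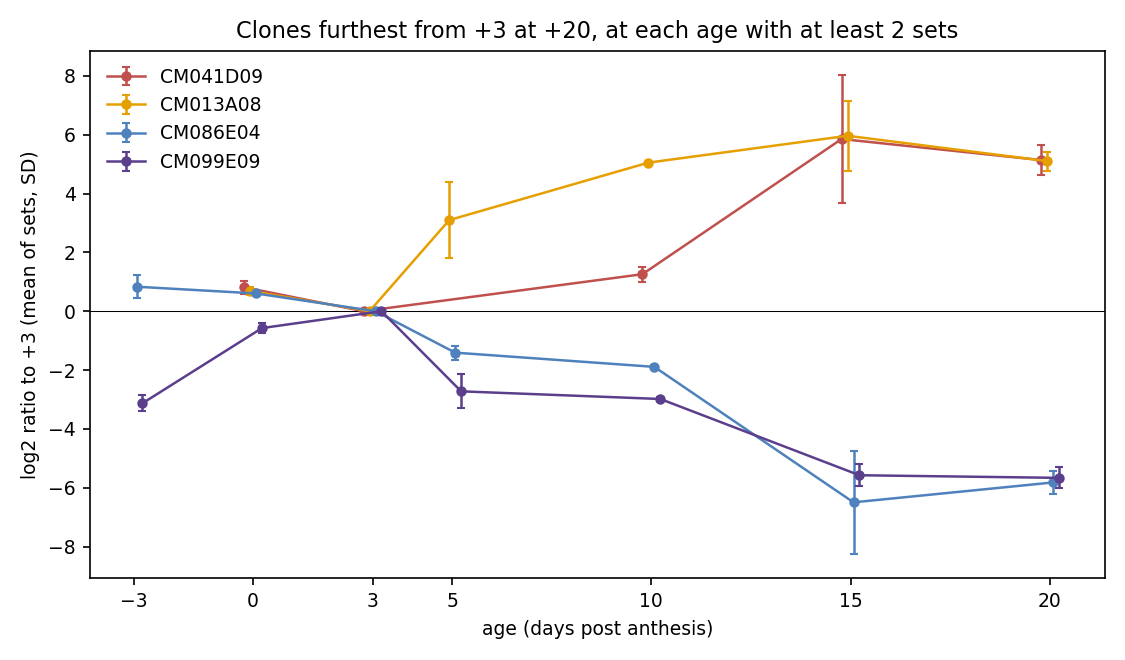
Log2 ratio to +3 (y axis) of the pair of clones highest and the pair lowest at +20, by age in days post anthesis (x axis). Points are means of sets with SD bars, drawn where at least 2 sets were complete and shifted sideways for legibility, and +3 is 0 by construction. CM013A08 is at 5.05 and CM041D09 at 1.26 at +10, while at +20 they stand at 5.11 and 5.14.

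A step with plate number ran through the 6 arrays and was seen only after the values were examined. Clones of plates 76 to 124, by the number in the clone name, had a lower median than those of plates 1 to 75. The gap was -0.70, -0.86 and -1.07 on the forward arrays of sets 1, 2 and 3, against -0.04, -0.19 and -0.08 on the dye swaps. After averaging, gaps of -0.38, -0.51 and -0.59 remained in the set means. The step was not confined to these arrays. At +15, +10 and +5 the median gap of the forward arrays was -0.74, -0.55 and -0.55, the shared array included. On the dye swaps of these ages it was -0.22, -0.15 and -0.17. In wild type against fl at +10 it was -0.36 on forward arrays and -0.27 on dye swaps. At 0 it was -0.05 on forward arrays and 0.18 on dye swaps. On the self-to-self arrays, where both channels hold the same RNA, the gap was -0.20, 0.18 and -0.43. The HEX spot read -9.04, 8.25 and -8.59 on these arrays, so by that spot the ratio of the array with the positive gap runs the other way in dye, and all 3 gaps point one way once it is turned.

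**Figure D3:**
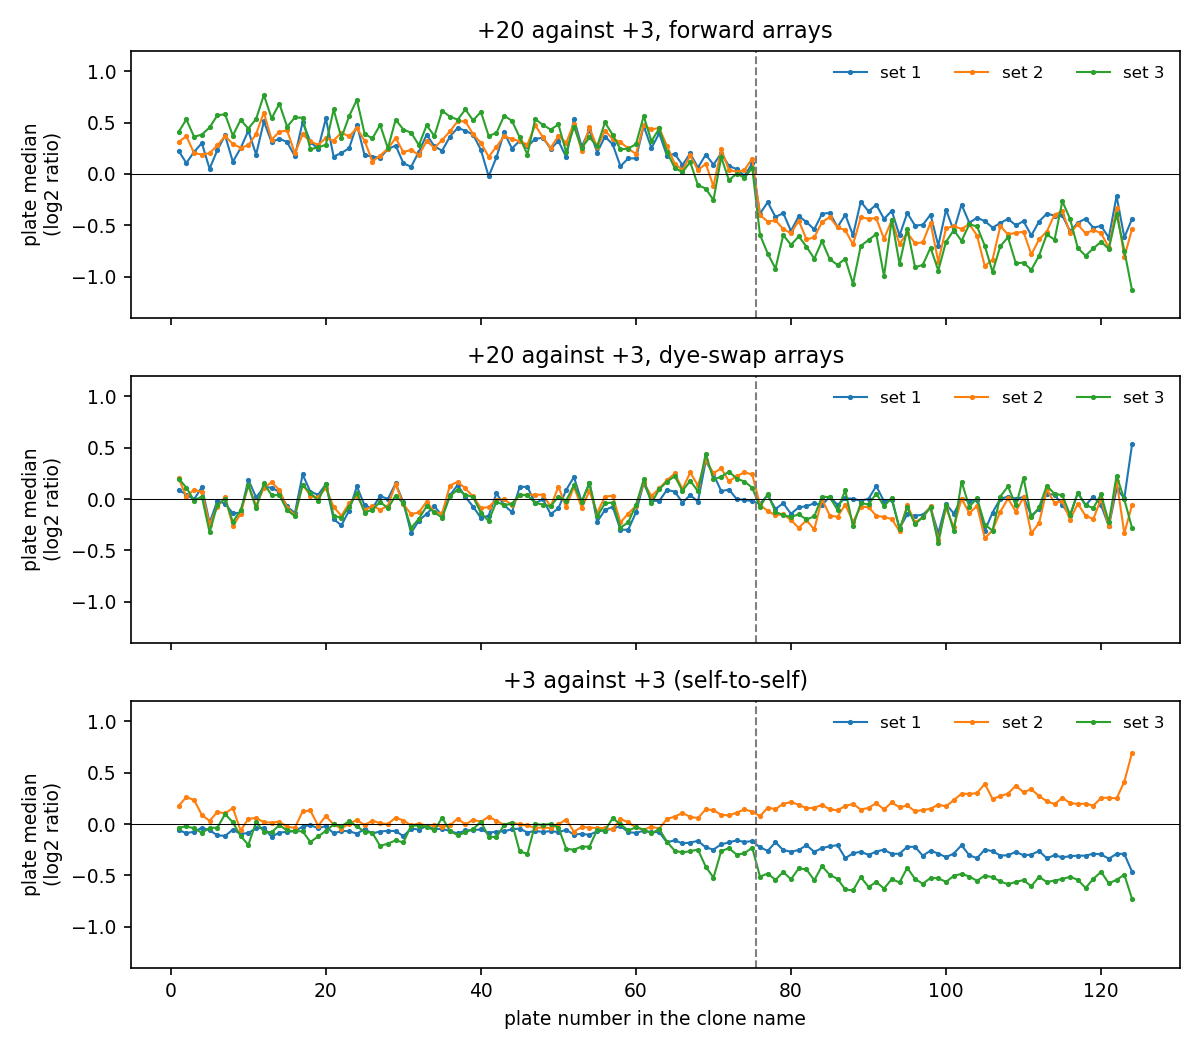
Median log2 ratio of the clones of each plate (y axis) against the plate number in the clone name (x axis), on the forward arrays (top), the dye-swap arrays (middle) and the self-to-self arrays (bottom), with 1 line per set. The dashed line lies below plate 76. Forward arrays step down there by 0.70 to 1.07 in median, dye swaps by 0.04 to 0.19.

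The step moved with the direction of the calls. On plates 1 to 75, 664 clones were at least 2-fold higher and 192 lower of 6560 tested. On plates from 76 up, 162 were higher and 574 lower of 3920. With each array centred on the median of every plate, the split was 789 higher and 628 lower in all. Of the 826 clones at least 2-fold higher, 661 were still called at least 2-fold higher with plates centred, 781 on the forward arrays alone and 625 on the dye swaps alone, and 550 under all of these. Of the 766 lower, the corresponding counts were 498, 717, 527 and 406. All of these fits use arrays by which the lists were chosen, so these counts too follow from the choice in part. Whether the step is an offset of the arrays or a difference between the clones spotted on those plates was not tested.

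The clones strongly changed at +20 approached that level over the preceding ages. The 826 higher clones had a median of -0.04 at -3, -0.05 at 0, 0.76 at +5, 0.92 at +10 and 1.34 at +15, against 1.43 at +20. The 766 lower clones had medians of -0.02, 0.14, -0.67, -0.84 and -1.23 at the same ages, against -1.32 at +20. Over all clones tested the medians lay between -0.05 and 0.04 at every one of these ages. All of these comparisons share +3 RNA with that by which the lists were chosen, and the values are given side by side for that reason with no test. Of the higher list 80.4% lay on plates 1 to 75 and of the lower list 25.1%, where 62.6% of the clones tested did. The plate step was also seen at +5, +10 and +15. Its part in these medians and in the shares that follow was not tested.

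At +15, 771 of the 794 higher clones that were tested were called higher than +3 (97.1%, where 31.5% of all clones tested at +15 were called higher) and 4 lower. At +10, 643 of 755 were called higher (85.2%, against 28.8% of all clones) and at +5, 466 of 637 (73.2%, against 26.8%). Before flowering, at -3, 151 of 711 were called higher (21.2%, against 20% of all clones) and 199 lower (28.0%, against 25%). On the day of flowering, 79 of 826 were higher (9.56%, against 14.4% of all clones) and 176 lower (21.3%, against 14.2%).

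The lower clones showed the mirror image at the later ages. At +15, 745 of the 761 tested were called lower than +3 (97.9%, against 36.5% of all clones), at +10, 563 of 724 (77.8%, against 30.3%), and at +5, 544 of 731 (74.4%, against 29.2%). At -3, 162 of 759 were higher (21.3%) and 211 lower (27.8%), near the 20% and 25% of all clones. At 0, 199 of 764 were higher (26.0%) and 68 lower (8.90%), where 14.4% and 14.2% of all clones were.

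**Figure D4:**
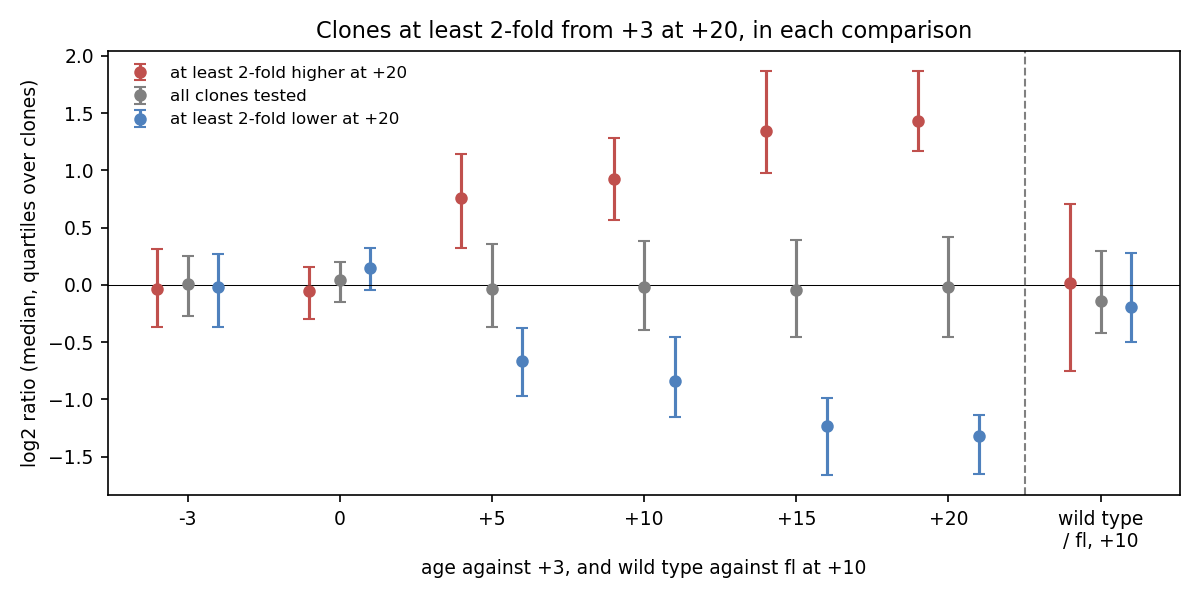
Median (point) and quartiles (bars) of the log2 ratio over clones, for the 826 clones at least 2-fold higher at +20 (red), the 766 at least 2-fold lower (blue) and all clones tested (grey). The x axis gives each age against +3 and, right of the dashed line, wild type against fl at +10. The red medians go from -0.05 at 0 to 1.34 at +15 and the blue medians from 0.14 to -1.23. For wild type against fl they are 0.01 and -0.20.

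The clones differed in the age at which they were first called at least 2-fold from +3. Of 628 higher clones tested at +5, +10, +15 and +20, 213 were at least 2-fold higher at +5 already, 109 first at +10, 210 first at +15 and 96 at +20 alone. Over all clones, 5.01% were called at least 2-fold higher at +5, 6.17% at +10 and 7.84% at +15. Of 706 lower clones, the counts were 162, 136, 293 and 115, where 2.76%, 3.74% and 7.36% of all clones were at least 2-fold lower at +5, +10 and +15. Those past 2-fold at +20 alone were close to the threshold at +15, with a median of 0.81 for the higher and -0.83 for the lower clones. At +20 itself their medians were 1.13 and -1.09. A first age of +20 is therefore a matter of small margins for most of these clones.

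Wild type against fl at +10 names no RNA in common with +20 against +3, and it sets the same clones in another light. Over all clones tested in it, 26.4% were higher in wild type and 39.8% lower, with a median of -0.14. Of the clones at least 2-fold higher at +20, 267 of 702 were higher in wild type (38.0%) and 274 lower (39.0%), with a median of 0.01. Of the clones at least 2-fold lower at +20, 152 of 622 were higher (24.4%) and 270 lower (43.4%), with a median of -0.20. With plates centred, 190 of 513 clones of the lower list were higher (37.0%, against 32% of all clones) and 165 lower (32.2%, against 30.9%). The larger share thus changed direction for all clones as well as for that list. Without centring, the share of the lower list that was higher in wild type lay below that of all clones (24.4% against 26.4%). With plates centred it lay above (37.0% against 32%). With plates centred, 242 of 668 of the higher list were higher (36.2%, against 32%) and 250 lower (37.4%, against 30.9%).

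The higher list spread widely in this comparison. Its quartiles were -0.75 and 0.71, against -0.42 and 0.29 over all clones. At least 2-fold, 134 of the 702 were higher in wild type (19.1%, where 9.52% of all clones were) and 117 lower (16.7%, against 3.96%). On plates 1 to 75, 43.7% of the higher list were higher in wild type, where 35.0% of all clones on those plates were. On plates from 76 up, 14.1% were, where 11.2% of all clones were. Of the 826 clones of the higher list, 664 lie on plates 1 to 75. Of the 766 of the lower list, 574 lie on plates from 76 up. The share over all plates is therefore a background not matched by plate for either list.

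Among the higher clones, the share above fl differed with the age of the first 2-fold difference. Over all clones it was 26.4% above and 39.8% below, a background not matched by plate for these classes. Of those already at least 2-fold higher at +5, 125 of 208 were above fl in wild type (60.1%) and 33 below, with a median of 0.67. Of those first at least 2-fold higher at +10, 49 of 108 were higher and 37 lower, with a median of 0.24. For a first age of +15, 53 of 197 were higher (26.9%) and 101 lower, with a median of -0.27, and for +20 alone 21 of 89 were higher (23.6%) and 45 lower, with a median of -0.30. The shares above fl of the last pair of classes lie near that of all clones. Their shares below fl, 51.3% for a first age of +15 and 50.6% for +20 alone, lie above the 39.8% of all clones. The differences between classes, and the part of the plates in them, were not tested. The comparison of +10 with +3 that separates these classes names the same +10 wild-type RNA as wild type against fl at +10, and what this shared RNA adds was not tested.

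Among the lower clones the order was not monotonic. Of those at least 2-fold lower at +5 already, 41 of 120 were above fl in wild type (34.2%) and 47 below, and of those first lower at +10, 15 of 114 were above (13.2%) and 63 below. For a first age of +15, 81 of 270 were above (30%) and 104 below, and for +20 alone 12 of 102 were above (11.8%) and 52 below. Over all clones 26.4% were above and 39.8% below, a background not matched by plate for these classes either. Of the 105 clones at least 4-fold lower at +20, 81 were tested between genotypes, with 44 higher in wild type (54.3%), 18 lower (22.2%) and a median of 0.57. Clone CM086E04 is one of them, higher in wild type by 2.78 ± 0.58 (SD, n = 3; limma adjusted p = 1.13e-06), and CM099E09 another, at 0.88 ± 0.09 (SD, n = 3).

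Between +15 and +20 few clones changed. No array compared these ages directly, and the difference was taken between the comparisons that each set them against +3. Of 10246 clones tested, 816 were called (7.96%), 402 higher (3.92%) and 414 lower (4.04%) at +20, of which 39 (0.381%) and 83 (0.81%) differed at least 2-fold. This count rests on all 3 sets: it was 174 without set 1, 254 without set 2 and 444 without set 3. With the arrays scaled to a common spread it was 356, with 122 higher and 234 lower, and with plates centred 1426.

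A single plate supplied much of the strong change. Plate 108 holds 0.644% of the clones tested in this comparison, but 28 of the 122 clones at least 2-fold apart (23.0%). On the 6 arrays of +20 its wells repeated those of plate 107, with a Pearson r of 0.80 to 0.97 across wells, which are not independent replicates. On the 6 arrays of +15 the same correlation was -0.08 to 0.01. Averaged over sets, the wells of plate 108 at +20 correlated at 0.88 with plate 107 at +15 and at 0.03 with plate 108 at +15, while every other plate correlated between the ages at 0.75 to 0.95. Of 7503 pairs of plates at +20, plates 107 and 108 had the highest correlation, 0.97, and the next pair had 0.42.

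The wells also repeated plate 107 at -3, +5 and +10, and did not at 0 (r of -0.07 to 0.13) or in wild type against fl at +10 (-0.05 to 0.12). Whether the names of plate 108 mark the same spots on all arrays was not tested. Its clones were left out of the description of +20 against +15 that follows, a choice made after the values were seen, and kept elsewhere. Of the 1592 clones at least 2-fold from +3 at +20, 16 lie on it, and without it 822 were higher and 754 lower. Without plate 108, 759 of 10180 clones differed between +20 and +15 (7.46%), 378 higher (3.71%) and 381 lower (3.74%) at +20, with 27 (0.265%) and 67 (0.658%) at least 2-fold apart.

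Clones CM047E06 and CM019E04 were the highest at +20 relative to +15 off that plate. CM047E06 read from 0.91 to 1.30 on the 6 arrays of +20, with a mean of 1.10 ± 0.08 (SD, n = 3), and stood at -0.48 ± 0.09 at +15 (SD, n = 3). The sets of the ages did not overlap, and the difference was 1.57 ± 0.16 (SE; limma adjusted p = 2.05e-06). CM019E04 stood at 3.71 ± 0.45 at +20 and 2.16 ± 0.23 at +15 (SD, n = 3 each), a difference of 1.54 ± 0.20 (SE; limma adjusted p = 9.76e-05). On the dye swaps alone that difference was 0.96 and was not called. Both clones had been as high at +10 as at +20, at 1.29 ± 0.18 and 3.72 ± 0.52 (SD, n = 2 each).

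Clones CM037C09 and CM042D09 were the lowest. CM037C09 read from 1.29 to 4.28 on the 6 arrays of +20, with a mean of 2.69 ± 0.78, and stood at 5.61 ± 1.05 at +15 (SD, n = 3 each). The difference was -2.92 ± 0.46 (SE; limma adjusted p = 0.00187), and on the forward arrays alone it was -1.98 and not called. CM042D09 read from 0.91 to 1.34, with a mean of 1.14 ± 0.10, against 3.93 ± 0.55 at +15 (SD, n = 3 each), a difference of -2.79 ± 0.20 (SE; limma adjusted p = 1.50e-08). At +10 it had been at 1.25 ± 0.04 (SD, n = 2), so that +15 was its highest age among those measured.

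The 378 clones higher at +20 than at +15 were mixed in their course through the earlier ages. Their median was -0.56 at -3, -0.27 at 0, 0.63 at +5, 0.55 at +10, -0.01 at +15 and 0.66 at +20. At -3, 248 of 369 were called lower than +3 (67.2%, where 25.1% of all clones were) and at +10, 254 of 368 higher, where 28.9% of all clones were. At +15, 111 were above +3, 118 below it and 149 not called, where 31.5% of all clones were above and 36.4% below. At +20, 291 were above +3 and 39 below, where 33.6% and 35.7% of all clones were. Both +15 and +20 enter the choice of this list, so these counts follow from it in part. Neither -3 nor +10 enters the difference of +20 and +15, but all of these comparisons carry +3 RNA.

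In wild type against fl at +10, which names no RNA in common with +20 or +15, 213 of 345 of these clones were higher in wild type (61.7%, where 26.5% of all clones were) and 88 lower (25.5%, against 39.7%), with a median of 0.66. The share higher in wild type was 51.0% for the list made with plates centred (32.0% of all clones) and 57.0% for that made from forward arrays alone. It was 37.0%, with a median of -0.10, for the list made from dye swaps alone, where 22.1% of all clones were higher. With set 1, 2 or 3 left out of every comparison it was 54.2% of 48 clones, 64.4% of 101 and 59.7% of 196. For forward arrays alone and with a set left out, the share of all clones is not given here, so these shares stand without a background.

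The 381 clones lower at +20 than at +15 had the reverse course at the early ages, with medians of 0.31 at -3 and 0.17 at 0, then -0.12 at +5, -0.13 at +10, 0.60 at +15 and -0.14 at +20. At -3, 208 of 374 were higher than +3 (55.6%, where 20% of all clones were). At +15, 239 were above +3 and 69 below (31.5% and 36.4% of all clones), and at +20 111 above and 173 below (33.6% and 35.7%). Both of these ages enter the choice of this list too, so these counts follow from it in part. Between genotypes at +10, 89 of 346 were higher in wild type (25.7%) and 165 lower (47.7%), with a median of -0.22, where 26.5% of all clones were higher and 39.7% lower.

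**Figure D5:**
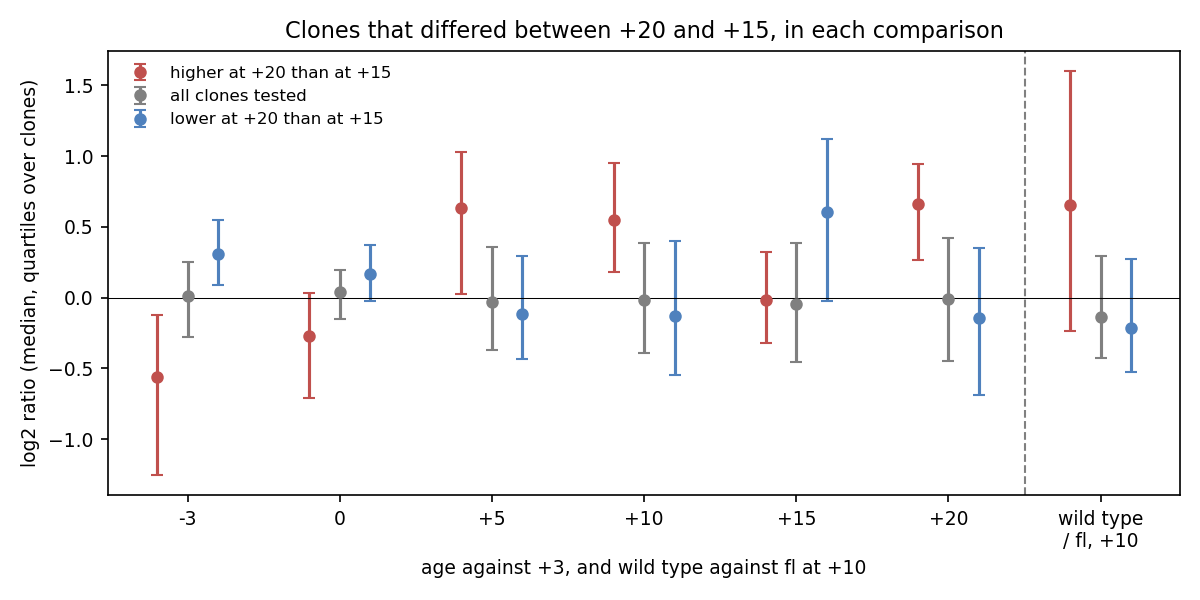
Median (point) and quartiles (bars) of the log2 ratio over clones, for the 378 clones higher at +20 than at +15 (red), the 381 lower (blue) and all clones tested (grey), plate 108 left out. The x axis gives each age against +3 and, right of the dashed line, wild type against fl at +10. The red medians are -0.56 at -3, 0.55 at +10, -0.01 at +15 and 0.66 at +20. The lists were chosen on the values at +15 and +20.

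More clones separated +20 from +10, the age of lengthening fibres. Of 10021 clones tested through +3, 2271 were called (22.7%), 1050 higher (10.5%) and 1221 lower (12.2%) at +20, with 209 (2.09%) and 282 (2.81%) at least 2-fold apart. The count was 625 without set 1, where +10 is left with 1 set, assumed to vary like the other groups. It was 1595 without set 2 and 1557 without set 3, which also leaves +10 with 1 set. On the 6 arrays of +10 the wells of plates 107 and 108 correlated at 0.45 to 0.97, and without plate 108 the count was 2253.

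Clones CM041D09 and CM022E07 were the furthest above +10. CM041D09 is described above, and its difference was 3.88 ± 0.81 (SE; limma adjusted p = 0.00372). Without set 1 the difference was 4.30 and was not called. CM022E07 read from 3.20 to 5.38 on the 6 arrays of +20, with a mean of 4.07 ± 0.56 (SD, n = 3). Every array lay well above its level at +10, which was 0.52 ± 0.44 (SD, n = 2), and the difference was 3.55 ± 0.27 (SE; limma adjusted p = 1.17e-07). At +15 it was at 4.37 ± 0.30 (SD, n = 3), while at +5, 0 and -3 it was not called.

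Clones CM079H06 and CM086E04 were the furthest below +10. CM079H06 read -3.84 and -3.65 in set 1 at +20, -5.35 and -2.48 in set 2, and -4.54 and -4.17 in set 3, with a mean of -4.00 ± 0.32 (SD, n = 3). At +10 it stood at 0.45 ± 0.24 (SD, n = 2), and the difference was -4.45 ± 0.61 (SE; limma adjusted p = 2.62e-05). It was also below +3 at -3, at -2.97 ± 0.32 (SD, n = 2), and at 0, at -2.34 ± 0.19 (SD, n = 3), and in wild type it exceeded fl at +10 by 2.99 ± 1.34 (SD, n = 3). The difference of CM086E04 was -3.93 ± 0.57 (SE; limma adjusted p = 3.85e-05).

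Plate 108 is included in the lists of +20 against +10. The 1221 clones lower at +20 than at +10 had medians of -0.29 at -3, 0.26 at +10, -0.55 at +15 and -0.55 at +20, and 614 of 1210 were called lower than +3 at -3 (50.7%, where 25% of all clones were). Of these 1221 clones, 576 were above +3 at +10, of which 195 were above it at +20 too, 259 were not called and 122 were below it. Over all clones, 28.8% were above +3 at +10. Both +10 and +20 enter the choice of this list, so these counts follow from it in part. The 1050 clones higher at +20 than at +10 had medians of 0.09 at -3, 0.05 at +10, 0.63 at +15 and 0.75 at +20. At +15, 765 of 1040 were called above +3 (73.6%, where 31.5% of all clones were).

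In wild type against fl at +10, 632 of the 1157 clones lower at +20 than at +10 were higher in wild type (54.6%) and 287 lower (24.8%), with a median of 0.37. Over all clones 26.4% were higher and 39.8% lower, with a median of -0.14. Of the clones higher at +20, 116 of 890 were higher in wild type and 556 lower (62.5%), with a median of -0.39. Both this comparison and +20 against +10 carry +10 wild-type RNA, so an error in that RNA moves both in these directions, and its part in these counts was not tested.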

How the data were processed

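RNA of cotton ovules was hybridised with 2 dyes to cDNA arrays. Log2 ratios of the 51 arrays were deposited by the authors as a single table of 11706 rows. How it was normalized is not given in the sources used here. The unit was found from the values. On the 6 arrays of +20 against +3, the 13 control rows and the 11 spots with gene-like names, raised to the power of 2, are whole multiples of 0.0001 within 0.02 of a step, while only 3.83% to 4.28% of the values in the 11682 clone rows are. On the self-to-self arrays all rows are such multiples. The clone rows were therefore taken as normalized and the other 24 rows as not normalized. No spot brightness was used, and precision is limited by how many arrays there are.

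Samples were grouped by their titles. Exact zeros were treated as missing, and the array and its dye swap were averaged within a set when both were measured. The forward arrays of +5 in set 3 and of +10 in set 2 share 19 of 19 control values within 1e-06, and both were left out. A group-means model of 8 comparisons was fitted to the clone rows with limma 3.58.1 in R 4.3.3 (lmFit and eBayes), with Benjamini-Hochberg adjustment within each contrast over all clones tested and a threshold of 0.05. A clone needed at least 2 complete sets per comparison and a spread of its own. Moderation used a prior SD of 0.18 (log2) with 6.12 degrees of freedom. An adjusted p or SE rests on 1 spread per clone over all comparisons, whereas a printed SD is that over the sets named. Log ratios with the spread of the clones, but without offsets of plates or arrays, were simulated, and +20 against +3 was fitted over 10480 clones. The fit called 43 of 67 clones changed by 0.5 on the log2 scale, 66 of 67 changed by 1 and 12 of 10280 unchanged ones. Far fewer clones were changed in the simulation than the 69.3% called in the real data. These counts therefore do not give the rate of false calls there.

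The members and lists were chosen with earlier results of these data known. The rule for named clones took the extremes among called clones, complete and, for +20 against +3, of 1 sign on all 6 arrays. At most 2 clones per direction are printed, since the names carry no gene. The step between plates, the repeat of plate 107 and the alternatives built on them were found after the values were seen. Alternatives were centring, scaling, plate centring, zeros kept, complete sets, fits of fewer samples, robust moderation, each dye alone, each set left out and the set as a block.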

Additional observations from a re-analysis of the deposited data

Results flagged for a closer look

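The difference between +20 and +15 was called for 816 clones, plate 108 included, and that between +20 and +10 for 2271, each tested as a contrast of the changes from +3 in 1 model (limma). The clones furthest apart between +20 and +15 off plate 108 were CM047E06 at 1.57, CM019E04 at 1.54, CM037C09 at -2.92 and CM042D09 at -2.79 (log2). Those furthest apart between +20 and +10 were CM041D09 at 3.88, CM022E07 at 3.55, CM079H06 at -4.45 and CM086E04 at -3.93.

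Among 11 spots with gene-like names, which are not clones and were not in the fit, 3 lay further from 0 in every set than on any self-to-self array. TUB1, a name used for tubulin genes, read 1.49 ± 0.22 at +20 (log2, SD, n = 3), with sets from 1.27 to 1.71 against -0.56 to -0.12 on the self-to-self arrays. USP1 read -0.78 ± 0.12 (SD, n = 3), against -0.14 to -0.04 there. ATP2 read -0.58 ± 0.19 (SD, n = 3), against -0.35 to 0.06 there. The spots named alike did not meet this rule. TUB2 read 0.25 ± 0.32, with sets from -0.03 to 0.59, USP2 -0.53 ± 0.23 and ATP1 -0.09 ± 0.23 (SD, n = 3 each). These rows are not normalized as the clone rows are.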

How the results depend on the processing

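Under the alternatives, the count of clones that differed between +20 and +3 stayed within 1.5 times of 7266, from 5895 on the dye swaps alone to 7553 with arrays centred, and without 1 set it ran from 5905 to 6279. The counts at least 2-fold higher and lower were 491 and 372 with arrays scaled and 719 to 818 and 595 to 820 without 1 set. They were 1227 and 1261 on forward arrays alone, where the plate step is widest. Between +20 and +15, 356 clones were called with arrays scaled, 1426 with plates centred, 274 on forward arrays, 427 on dye swaps, 459 on dye swaps with plates centred, and 174 to 444 without 1 set, against 816, and scaling left 14 at least 2-fold higher and 52 lower. Without 1 set these were 26 to 27 and 65 to 77. Between +20 and +10, 1429 clones were called with arrays scaled, 1197 on forward arrays and 625 to 1595 without 1 set, against 2271. At least 2-fold higher clones numbered 90 with arrays scaled, 335 on forward arrays and 205 to 226 without 1 set, and lower ones 161 with arrays scaled and 217 to 283 without 1 set. The cause of these changes was not tested.

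In wild type against fl at +10, the share higher in wild type was 43.6% for the clones at least 2-fold higher at +20 with arrays centred, 43.7% on plates 1 to 75 and 14.1% from 76 up, against 38.0%. For the clones at least 2-fold lower it was 30.8% with arrays centred, 54.3% for at least 4-fold, 37.0% with plates centred (32% of all clones) and 30.4% on plates 1 to 75, against 24.4%. The share of all clones on each block of plates is given above, and 30.4% lies below that of plates 1 to 75. For clones higher at +20 than at +15 it was 51.0% with plates centred, 37.0% on dye swaps alone and 54.2% to 64.4% without 1 set, against 61.7%, and for clones lower at +20 than at +15 it was 28.0% to 28.7% without 1 set. The share of all clones is not given here for arrays centred or without 1 set, so those shares stand without a background. The highest share of clones past 2-fold on a self-to-self array was 1.24% with arrays centred.

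With the set number as a replicate block, 7191 clones differed between +20 and +3, 801 between +20 and +15 and 2207 between +20 and +10, none of them a move of over 1.5 times. The deviations of same-numbered sets of +20 and +15 correlated at 0.27, 0.06 and 0.34, and those of differently numbered sets at -0.31 to 0.12. Sets 1 and 3 of +20 correlated best with their own number, while +20 set 2 correlated best with +15 set 1, at 0.07. For +20 and +10 the correlations were 0.12 and 0.11, from 2 sets of +10 whose deviations mirror each other. These values do not settle whether the numbers pair the samples, and the numbers were not taken to do so. Of 237 values of single named clones under the alternatives, 233 kept their direction and their call, and the other 4 kept their direction and lost the call.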
